A study of Mus musculus with 6 samples.

Results

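The mitochondrial respiratory chain subunits described here are the nuclear genes that encode the parts of complexes I to V and cytochrome c. They were chosen by symbol alone, as genes beginning Ndufa, Ndufb, Ndufc, Ndufs, Ndufv, Sdha to Sdhd, Uqcr, Cox4i, Cox5, Cox6, Cox7, Cox8 or Atp5, with Cyc1 and Cycs and without assembly factors. The arrays held 118 probes for 87 such genes, out of 20659 genes with a named probe. Of the 87 genes, 84 had a probe well above background on all arrays of at least 1 genotype and were tested among 12781 genes. The remaining 3 were the isoforms Cox7b2, Cox8b and Cox8c, which were not well above background on any array. A further 3 protein-coding genes of the rule, Ndufb1, Ndufb4b and Ndufb4c, had no probe named here, and no probe was named for the subunits encoded in mitochondrial DNA.

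RNA came from lenses of mice aged 3 months. The knock-in group (3 arrays, replicates 1, 2 and 4) carried W151C, tryptophan replaced by cysteine at codon 151 of the lens structural protein βB2-crystallin, introduced by CRISPR/Cas9 into Crybb2. The wild type group (3 arrays, replicates 1, 2 and 3) carried no edit, and the labels do not say whether the edited allele was on 1 or both chromosomes, nor how many animals gave an array. Each array measured Cy3-labelled RNA in a single colour, and values below are the log2 signal relative to the 75th percentile of the array, so that a difference of 1 is 2-fold.

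The respiratory chain passes electrons from NADH (complex I) and succinate (complex II) through complex III and cytochrome c to oxygen at complex IV, and the proton gradient this builds drives ATP synthesis at complex V. Most subunits are encoded in the nucleus and imported into mitochondria. In the lens, mitochondria are kept by the epithelium and the outer, younger fibre cells, while maturing fibre cells remove them together with nuclei and other organelles. Which part of the lens gave the RNA measured here was not tested. Several subunits have alternative isoforms made mainly in muscle, heart, lung or testis. In whole lenses, fewer cells of a type and less RNA per cell cannot be told apart.

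Arrays with the same scan date and time in the file headers were taken to share a slide. On that basis the knock-in arrays shared 1 slide. Wild type arrays 1 and 2 shared another, while wild type array 3 had a slide and a scan day of its own and a 75th percentile signal of 698, against 120 to 201 on the other 5. Slide and genotype therefore cannot be told apart, and results are also given from fits in which slide is a random block or scan day a fixed one. Of the 11 lens fibre cell markers probed, all were well above background on every array, and of the 10 lens epithelial markers at least 8 were, so the tissue label held. Knock-in array 4 stood apart in the retinal markers. All 8 of its genes were well above background there, against 3 and 5 on knock-in arrays 1 and 2 and between 2 and 3 on the wild type arrays. Their summed signal was 62.8 times the 75th percentile on knock-in array 4, 2.26 and 2.88 on knock-in arrays 1 and 2, and between 0.476 and 0.578 on the wild type arrays. The photoreceptor gene Prph2 had a scaled log2 signal of 5.51 on knock-in array 4 and of -0.14 and 0.88 on the other knock-in arrays. Of the fibre cell markers, 8 of 11 fell (median difference -1.21), while 1 of 10 epithelial markers rose and 2 fell (median -0.35). Over all genes tested, 13.3% rose and 12.6% fell. The summed fibre marker signal was 687 to 789 on the knock-in arrays and 1000 to 2500 on the wild type arrays. Under the random slide block 4 of the 11 fibre markers fell, and 1 epithelial marker rose and 1 fell. In that fit 2.83% of all genes rose and 2.03% fell. Of 8 leukocyte markers measured, C1qc, Cd52 and Tyrobp rose, Itgam fell, and the median difference was 1.40. Of these 8, only Cd52 passed under the random slide block (adjusted p = 0.0323). Cd52 and Tyrobp were above background on no wild type array and C1qc on 1, and all 3 were highest on knock-in array 1. The summed leukocyte signal was 9.78 to 19.1 on the knock-in arrays and 12.7 to 40.9 on the wild type arrays. Most of this sum came from Itgam alone, so it mainly follows that gene and not the leukocyte markers as a set. Itgam stood at 3.33, 2.6 and 2.97 on knock-in arrays 1, 2 and 4 and at 5.12, 5.21 and 3.51 on wild type arrays 1, 2 and 3. The part of these markers in the results below was not tested, and counts are given with and without knock-in array 4 and wild type array 3.

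As a group the subunits passed the test no more often than all genes did. Of 84 measured, 9 rose and 9 fell in knock-in lenses at an adjusted p of 0.05 (limma, Benjamini-Hochberg over all genes), which is 21.4% against a background of 25.9% of all genes tested. The share that rose was 10.7% against 13.3% of all genes, and the share that fell was 10.7% against 12.6%. The median difference was -0.16 over the subunits and -0.04 over all genes, and 60 of the 84 differed by less than 0.5 in either direction. Only 6 of the 18 passed with a difference of at least 2-fold. These were Cox6a2, Cox7a1, Cox6b2 and Ndufc2 among the rises and Ndufa4l2 and Cox7c among the falls. The plot of differences by complex shows how narrow the spread was around 0 apart from these genes.

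**Figure D1:**
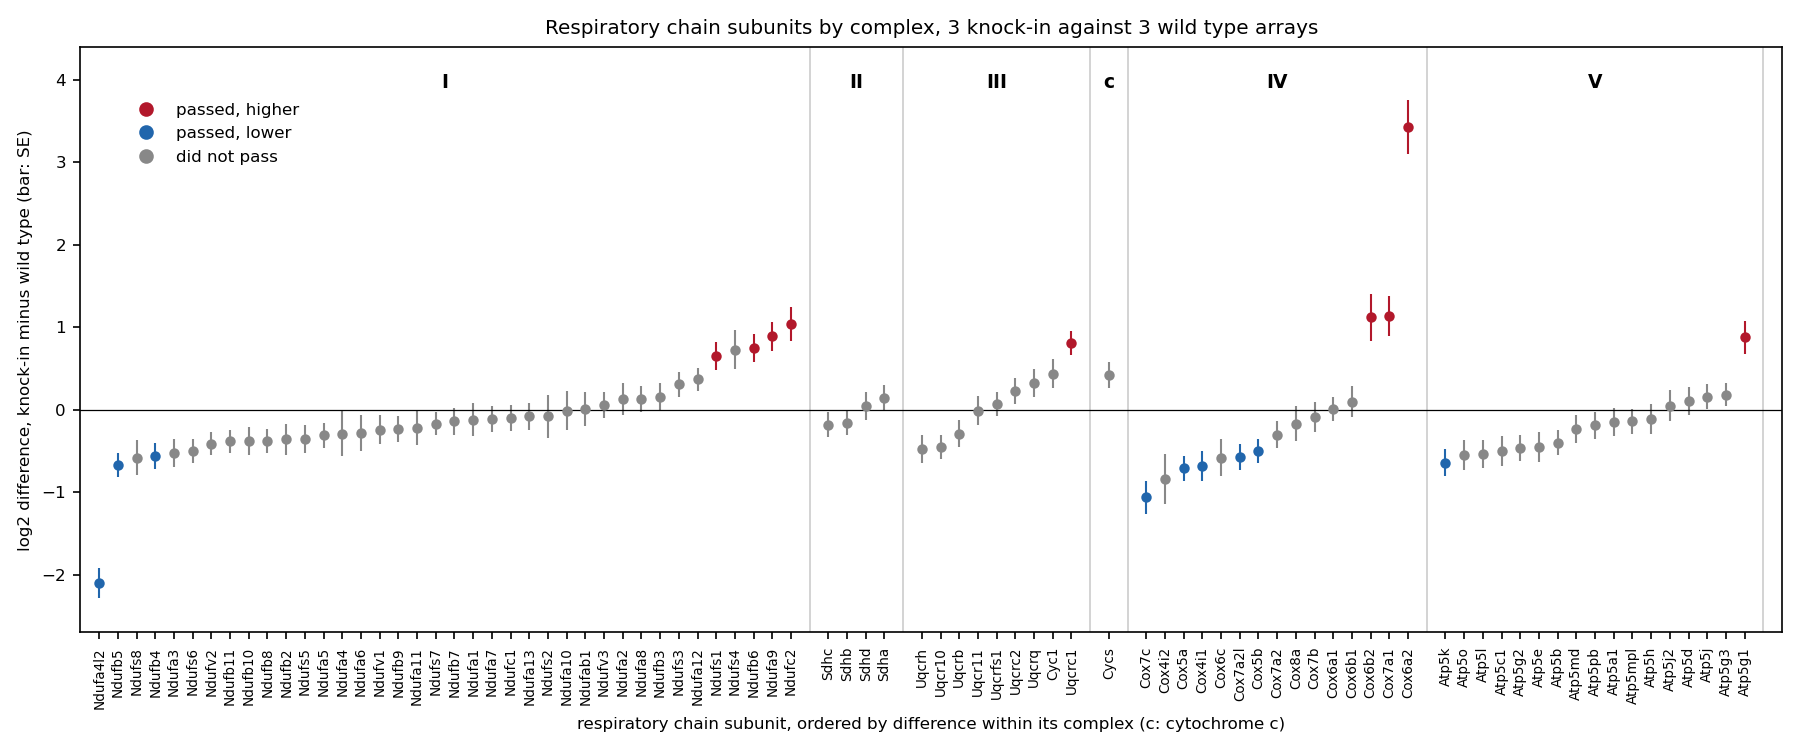
The log2 difference, knock-in minus wild type, of each of the 84 measured subunits, with its standard error, ordered within each complex; red and blue points passed the test at an adjusted p of 0.05. Cox6a2 at 3.43 and Ndufa4l2 at -2.10 lie far outside the range of the other subunits, which runs from -1.06 to 1.14.

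The arrays of the genotypes were separate in more subunits than passed the test, all 18 that passed among them. All 3 knock-in arrays lay below all 3 wild type arrays for 34 of 84 subunits (40.5%, against 23.1% of all genes) and above them for 16 (19.0%, against 22.7%), which together made 59.5% against 45.9% of all genes. The median size of a difference was 0.32 (0.42 over all genes) and the median standard error 0.17, and 54 subunits had a negative and 30 a positive difference. Within the shared scan day, with wild type array 3 absorbed by the block, 12 subunits rose and 22 fell, which is 40.5% against a background of 43.5% of genes (19.6% higher and 24.0% lower). In the fit with a random block for slide, 2 of the 84 passed (2.38%, against 4.86% of all genes, 2.83% higher and 2.03% lower), and these were Cox6a2 and Ndufa4l2.

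The counts moved with single arrays, as did those of all genes. Without knock-in array 4, 8 subunits rose and 3 fell, where 9.8% and 8.84% of all genes did. Without wild type array 3, 12 rose and 21 fell, against 19.0% and 24.4% of all genes. Leaving out knock-in array 1 gave 4 and 9 (background 10.9% and 8.51%), and leaving out knock-in array 2 gave 1 and 2 (6.2% and 5.81%). Leaving out wild type array 1 gave 4 and 2 (6.98% and 6.23%), and leaving out wild type array 2 gave 6 and 2 (7.39% and 6.95%). Scaling moved the split as well. After quantile normalization 15 subunits rose and 4 fell (background 14.9% and 12.8%), and with arrays centred on their median 6 rose and 3 fell (8.94% and 12.9%). Background correction by normexp left 5 rises and 6 falls (5.61% and 5.6%), dropping the filter on dim probes left 5 and 2 (5.46% and 4.24%), and a block for replicate number gave 12 and 8 (18.3% and 24.3%). Of the 18 calls, 3 remained on leaving out each array in turn, those of Cox6a2, Ndufa4l2 and Cox7c.

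Knock-in array 4 was the lowest knock-in array for 76 of the 84 subunits (90.5%, against 38.7% of all genes tested) and knock-in array 1 the highest for 62 (73.8%, against 38.4%). Centred on each gene's mean over the 6 arrays, the median subunit stood at 0.03, -0.06 and -0.26 on knock-in arrays 1, 2 and 4 and at 0.06, 0.09 and 0.07 on wild type arrays 1, 2 and 3. The corresponding medians of all genes lay between -0.05 and 0.02. Knock-in array 4 is the array with the high retinal markers, whose part in this order was not tested, and the median difference without it was -0.07.

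**Figure D2:**
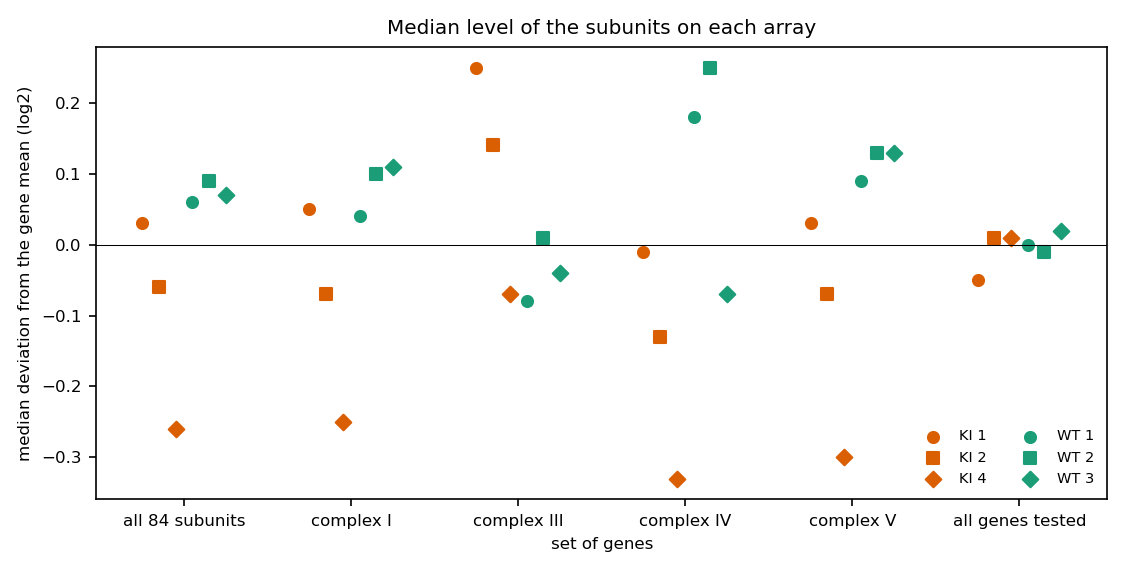
The median deviation of the subunits from each gene's mean over 6 arrays (log2), for each array and for complexes I, III, IV and V, beside all genes tested. Knock-in array 4 is the lowest array for the 84 subunits as a whole (-0.26) and for complexes I, IV and V, while all genes stay between -0.05 and 0.02.

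Complex I, the NADH dehydrogenase, had 38 measured subunits, of which 4 rose and 3 fell (median -0.16). This is a share of 18.4% against the background of 25.9%. The largest fall of any respiratory chain gene was that of Ndufa4l2, a paralogue of Ndufa4 that is induced by hypoxia-inducible factor and is known to restrain complex I. It stood at 0.65, 0.81 and 0.80 on the knock-in arrays (1, 2 and 4, in this order throughout) against 2.76, 2.65 and 3.13 on the wild type arrays (1, 2 and 3). The groups lay far apart with a narrow spread in both. The difference was -2.10 (SE 0.18, adjusted p = 0.000529), a level 4.27-fold lower in knock-in lenses. It passed within the scan day (-1.96, adjusted p = 0.000331), under the random slide block (-2.14, adjusted p = 0.00796) and without knock-in array 4 (-2.12, adjusted p = 0.00342).

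The other falls in complex I were of accessory subunits of the membrane arm. Ndufb5 stood at 4.16, 4.15 and 3.95 on the knock-in arrays and at 4.70, 4.80 and 4.77 on the wild type arrays, a difference of -0.67 (SE 0.15, adjusted p = 0.0178). Ndufb4 stood at 5.25, 5.07 and 4.86 against 5.57, 5.70 and 5.58, a difference of -0.56 (SE 0.16, adjusted p = 0.0467). In both genes knock-in array 4 was the lowest, and neither fall passed without it (-0.60, adjusted p = 0.0548 for Ndufb5 and -0.46, adjusted p = 0.121 for Ndufb4). Leaving out either wild type 1 or 2 or knock-in 2 also ended both calls (adjusted p up to 0.0808 for Ndufb5 and 0.162 for Ndufb4). After quantile normalization the difference of Ndufb4 was -0.20 (adjusted p = 0.347).

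Among the rises, Ndufc2, an accessory subunit of the membrane arm, stood at 5.0, 4.93 and 4.74 on the knock-in arrays and at 4.04, 4.05 and 3.46 on the wild type arrays. Its difference was 1.04 (SE 0.21, adjusted p = 0.0125), with wild type array 3 the lowest of all. Ndufa9, which lies where the peripheral and membrane arms meet, stood at 3.09, 2.92 and 2.61 against 2.03, 2.04 and 1.89, a difference of 0.89 (SE 0.18, adjusted p = 0.0124). The groups of both genes were separate, and both rises passed without knock-in array 4. Ndufb6, another accessory subunit of the membrane arm, stood at 4.82, 4.75 and 4.42 against 4.03, 3.88 and 3.81 (difference 0.75, SE 0.17, adjusted p = 0.0199). Ndufs1, a core subunit that carries iron-sulphur clusters and takes electrons from the NADH site, stood at 2.19, 2.08 and 1.93 against 1.37, 1.27 and 1.63 (difference 0.65, SE 0.17, adjusted p = 0.0317).

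Each of these 4 rises was lost on leaving out knock-in array 2 and, apart from Ndufc2, on leaving out wild type array 1 as well. The adjusted p was 0.0593 for Ndufc2 without knock-in 2, from 0.0521 to 0.0633 for Ndufa9 without knock-in 2 or wild type 1, and from 0.0524 to 0.0946 for Ndufb6 without either wild type 1 or 2 or either knock-in 1 or 2. For Ndufs1 it was from 0.0534 to 0.126 without any array other than wild type 3, and with normexp its difference was 0.39 (adjusted p = 0.271). Median centring ended the calls of Ndufb5, Ndufb4, Ndufb6 and Ndufs1 (adjusted p from 0.0814 to 0.162), as did dropping the filter on dim probes (adjusted p from 0.0692 to 0.133). Ndufb4 did not pass with normexp either (adjusted p = 0.0539). Under the random slide block the adjusted p of the 4 rises lay between 0.0978 for Ndufc2 and 0.271 for Ndufs1, and the falls of Ndufb5 and Ndufb4 had 0.2 and 0.345. The largest difference in complex I that did not pass was that of Ndufs4, an accessory subunit of the NADH-binding module. It stood at 4.90, 4.70 and 4.13 on the knock-in arrays and 4.06, 3.88 and 3.61 on the wild type arrays (0.73, SE 0.24, adjusted p = 0.0643). Ndufs4 passed after quantile normalization (0.91, adjusted p = 0.0202), with the replicate block (0.83, adjusted p = 0.011) and without knock-in array 4 (0.95, adjusted p = 0.0305). It did not pass within the scan day (adjusted p = 0.0881) or under the random slide block (adjusted p = 0.367). Within complex I the Ndufb genes had a median of -0.37 over 10 members, the Ndufa genes -0.11 over 15, and the Ndufs and Ndufv genes, which hold the core subunits, -0.17 over 11.

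Complex II, succinate dehydrogenase, also works in the citric acid cycle and was the least changed, with none of its 4 subunits past the test (0 of 4 by limma at an adjusted or an unadjusted p of 0.05). Sdha, the flavoprotein, stood at 2.74, 2.90 and 2.99 on the knock-in arrays and 2.67, 2.66 and 2.87 on the wild type arrays (0.14, SE 0.16, adjusted p = 0.538). Sdhb, the iron-sulphur protein, stood at 4.89, 4.89 and 4.84 against 5.07, 5.17 and 4.86 (-0.16, SE 0.15, adjusted p = 0.475). The groups overlapped in both. The membrane anchors Sdhc and Sdhd differed by -0.18 (adjusted p = 0.4) and 0.05 (adjusted p = 0.86). Sdhb and Sdhc each had a second probe with a difference of the opposite sign.

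Complex III, the cytochrome bc1 complex, had 9 measured subunits with a median of 0.07, of which 1 rose and none fell (2 fell at an unadjusted p of 0.05, Uqcrh and Uqcr10). The share past the test was 11.1% against the background of 25.9%. Uqcrc1, a core protein of the complex, stood at 1.66, 1.67 and 1.5 on the knock-in arrays and 0.86, 0.74 and 0.82 on the wild type arrays. The spread within each group was small, and the difference was 0.81 (SE 0.15, adjusted p = 0.00859). It passed without knock-in array 4 (0.86, adjusted p = 0.0211), and did not pass without knock-in array 2 (adjusted p = 0.0552), with median centring (0.77, adjusted p = 0.0613), with normexp (0.56, adjusted p = 0.0569) or under the random slide block (adjusted p = 0.126). The largest difference that did not pass was that of Uqcrh, the hinge protein that binds cytochrome c1, at -0.48 (SE 0.17, adjusted p = 0.0782). Within the scan day Uqcrh passed (-0.52, adjusted p = 0.0447). Cycs, the somatic cytochrome c that carries electrons to complex IV and activates caspases when released, stood at 4.24, 4.20 and 4.03 against 3.63, 3.70 and 3.88. Its groups were separate, but it did not pass (0.42, SE 0.16, adjusted p = 0.0894). Cycs passed within the scan day (0.49, adjusted p = 0.0278) and with the mean of its probes (0.60, adjusted p = 0.0296). The replicate block, quantile normalization and leaving out wild type array 3 also gave a pass (adjusted p = 0.0458, 0.0351 and 0.0287). It did not pass with median centring, normexp or the random slide block (adjusted p = 0.404, 0.0894 and 0.449). Nor did it with other probe filters (0.076 and 0.18) or without any other array (0.111 to 0.299).

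Complex IV, cytochrome c oxidase, had the most calls for its size, with 3 rises and 5 falls among 15 measured subunits (median -0.30). This is a share of 53.3% against the background of 25.9%, and the complex was not singled out by a test. The falls were of subunits made in most tissues, and the rises were of 3 isoforms known from muscle, heart or testis. Without knock-in array 4 the counts were 2 and 2, without wild type array 3 they were 3 and 7, after quantile normalization 3 and 2, and under the random slide block 1 and 0. The shares of all genes, in the same order, were 9.8% and 8.84%, 19.0% and 24.4%, 14.9% and 12.8%, and 2.83% and 2.03%.

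Among the falls, Cox7c, a small membrane subunit, stood at 5.48, 5.38 and 5.34 on the knock-in arrays and at 6.58, 6.70 and 6.11 on the wild type arrays. The difference was -1.06 (SE 0.20, adjusted p = 0.00928), and it passed without knock-in array 4 (-1.03, adjusted p = 0.0336). All 3 Cox7c probes were lower in knock-in lenses. Cox5a, a subunit on the matrix side, stood at 4.07, 4.18 and 3.96 against 4.84, 4.81 and 4.68 (-0.71, SE 0.15, adjusted p = 0.0153). Cox4i1, the main isoform of the largest nuclear-encoded subunit, stood at 5.55, 5.20 and 5.10 against 5.91, 5.90 and 6.09 (-0.68, SE 0.18, adjusted p = 0.0319). Knock-in array 1 lay nearest to the wild type arrays in this gene.

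Cox7a2l, also called SCAF1, which joins complexes III and IV into supercomplexes, stood at 5.24, 5.11 and 4.92 against 5.66, 5.71 and 5.62 (-0.57, SE 0.16, adjusted p = 0.0355), and its 3 probes differed in the same direction. Cox5b, a zinc-binding subunit named after its value was seen, was just past the threshold at -0.50 (SE 0.15, adjusted p = 0.0496). Of these falls only that of Cox7c held on leaving out each array. The adjusted p rose to 0.0585 to 0.0846 for Cox5a without either wild type 1 or 2 or knock-in 2. It rose to 0.0881 to 0.13 for Cox4i1 and 0.0953 to 0.133 for Cox7a2l without either wild type 1 or 2 or either knock-in 2 or 4, and to 0.0572 to 0.172 for Cox5b without any array but wild type 3. After quantile normalization Cox4i1, Cox7a2l and Cox5b stood at -0.32, -0.21 and -0.28 and did not pass (adjusted p = 0.198, 0.299 and 0.19). Nor did these 3 pass with normexp (-0.38, -0.45 and -0.62, adjusted p = 0.344, 0.18 and 0.094). Median centring ended the calls of Cox5a, Cox4i1, Cox7a2l and Cox5b (adjusted p from 0.0664 to 0.2), as did dropping the filter on dim probes (adjusted p from 0.0613 to 0.146). Under the random slide block the adjusted p was 0.105 for Cox7c and from 0.183 to 0.346 for the other 4.

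**Figure D3:**
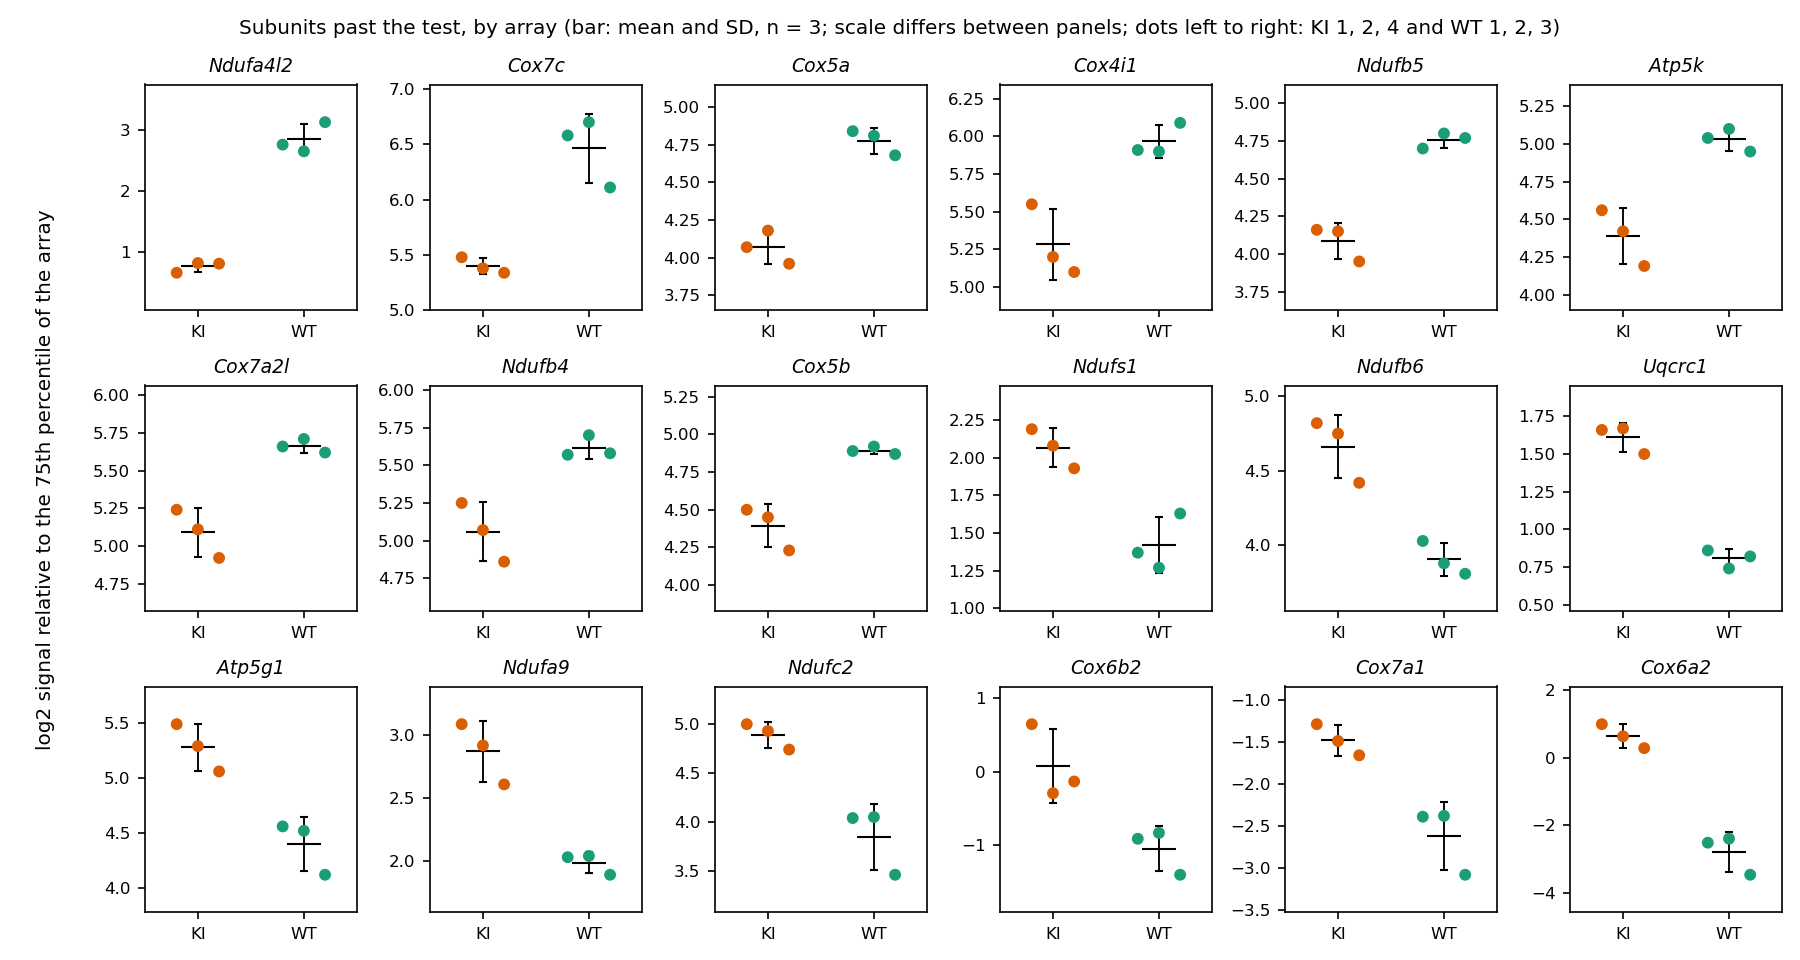
The scaled log2 signal on each array of the 18 subunits past the test, ordered from the largest fall (Ndufa4l2) to the largest rise (Cox6a2), with mean and SD of 3 arrays for knock-in (KI) and wild type (WT). The knock-in and wild type arrays do not overlap in any panel, and knock-in array 4 is the lowest knock-in array in most of them.

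The largest rise of any respiratory chain gene was that of Cox6a2, the isoform of subunit VIa found in heart and skeletal muscle. It stood at 1.0, 0.64 and 0.29 on the knock-in arrays against -2.51, -2.39 and -3.46 on the wild type arrays. It was well above background on all 6 arrays, and every knock-in array was above every wild type array by a wide margin. The difference was 3.43 (SE 0.33, adjusted p = 0.000757), a level 10.8-fold higher in knock-in lenses. It was 3.10 within the scan day (adjusted p = 0.000419), 3.54 under the random slide block (adjusted p = 0.00941), 3.61 without knock-in array 4 (adjusted p = 0.00354) and 2.01 after normexp background correction (adjusted p = 0.0204). Of 9 striated muscle markers probed, only 2 were measured, and 7 did not meet the filter in either genotype. Myh4, Myh1 and Mb were not well above background on any array. Acta1 fell by 1.29, a call lost without knock-in 2 or either wild type 1 or 2. Ckm passed as lower with only a bound in knock-in lenses, where no array measured it above background. Its call was lost without either knock-in 2 or 4 or either wild type 1 or 2. Under the random slide block neither passed (adjusted p = 0.253 for Acta1 and 0.212 for Ckm). The summed signal of the 9 was 1.23 to 2.31 on the knock-in arrays against 3.09 to 3.48 on the wild type arrays. The part of muscle tissue in the rise of Cox6a2 was not tested.

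Cox7a1, the heart and muscle isoform of subunit VIIa, stood at -1.29, -1.49 and -1.66 on the knock-in arrays and at -2.39, -2.38 and -3.08 on the wild type arrays (1.14, SE 0.24, adjusted p = 0.0141). Cox6b2, an isoform of subunit VIb best known from testis, stood at 0.65, -0.29 and -0.13 against -0.91, -0.83 and -1.40 (1.12, SE 0.29, adjusted p = 0.0304). The groups were separate in both, with knock-in array 1 the highest. Both signals are dim, and with normexp background correction neither passed (0.60, adjusted p = 0.284 for Cox7a1 and 0.85, adjusted p = 0.0813 for Cox6b2). Cox6b2 was also lost without the filter on dim probes (adjusted p = 0.0786). Cox7a1 did not pass without knock-in 1 or knock-in 2 (adjusted p from 0.0518 to 0.0589), nor Cox6b2 without any array but wild type 3 (adjusted p from 0.0505 to 0.0716). Under the random slide block they had adjusted p = 0.102 and 0.246.

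Cox6a1, Cox7a2 and Cox6b1, the partners of these 3 isoforms in most tissues, did not pass the test. Cox6a1 stood at 6.45, 6.4 and 6.26 on the knock-in arrays and 6.43, 6.44 and 6.22 on the wild type arrays, a difference of 0.01 (SE 0.15, adjusted p = 0.979). Cox6b1 differed by 0.10 (SE 0.19, adjusted p = 0.725), and Cox7a2 by -0.30 (SE 0.16, adjusted p = 0.205). Cox7b and Cox8a, whose alternative isoforms were not measured, differed by -0.09 (adjusted p = 0.759) and -0.17 (adjusted p = 0.602). Cox4i2, the isoform of subunit IV known from lung and from low oxygen, had the largest difference in complex IV that did not pass. It stood at 0.24, 0.24 and 0.00 against 1.23, 1.46 and 0.32 (-0.84, SE 0.30, adjusted p = 0.0821). Wild type array 3 lay close to the knock-in arrays in this gene, and within the scan day the difference was -1.19 (adjusted p = 0.00216).

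Within each array, the change of an isoform against its partner does not depend on the scaling by percentile. The log2 ratio of Cox6a2 to Cox6a1 was 3.42 higher in knock-in than in wild type lenses, that of Cox7a1 to Cox7a2 was 1.43 higher and that of Cox6b2 to Cox6b1 was 1.02 higher. The ratio of Ndufa4l2 to Ndufa4 changed by -1.8 (-1.37 without wild type array 3), while Ndufa4 itself, now often counted with complex IV, differed by -0.29 (SE 0.27, adjusted p = 0.462). For Ndufa4 wild type array 3 was the lowest of all at 5.16, against 6.05 and 6.04 on wild type arrays 1 and 2. Within the scan day Ndufa4 passed as lower (-0.59, adjusted p = 0.0196). Under the random slide block it did not pass (-0.20, adjusted p = 0.824). The ratio of Cox4i2 to Cox4i1 changed by -0.16, with overlapping groups and an exact permutation p of 0.8. Of 8 pairs compared, the groups did not overlap in the other 7, where the exact two-sided permutation test gave p = 0.1, the smallest that 3 against 3 arrays allow (0.114 after Benjamini-Hochberg adjustment). The pairs among Atp5g1, Atp5g2 and Atp5g3 share genes, so the 8 are not separate results. Among single genes 45.9% of all tested had separate groups, and the share over other pairs of genes was not measured.

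**Figure D4:**
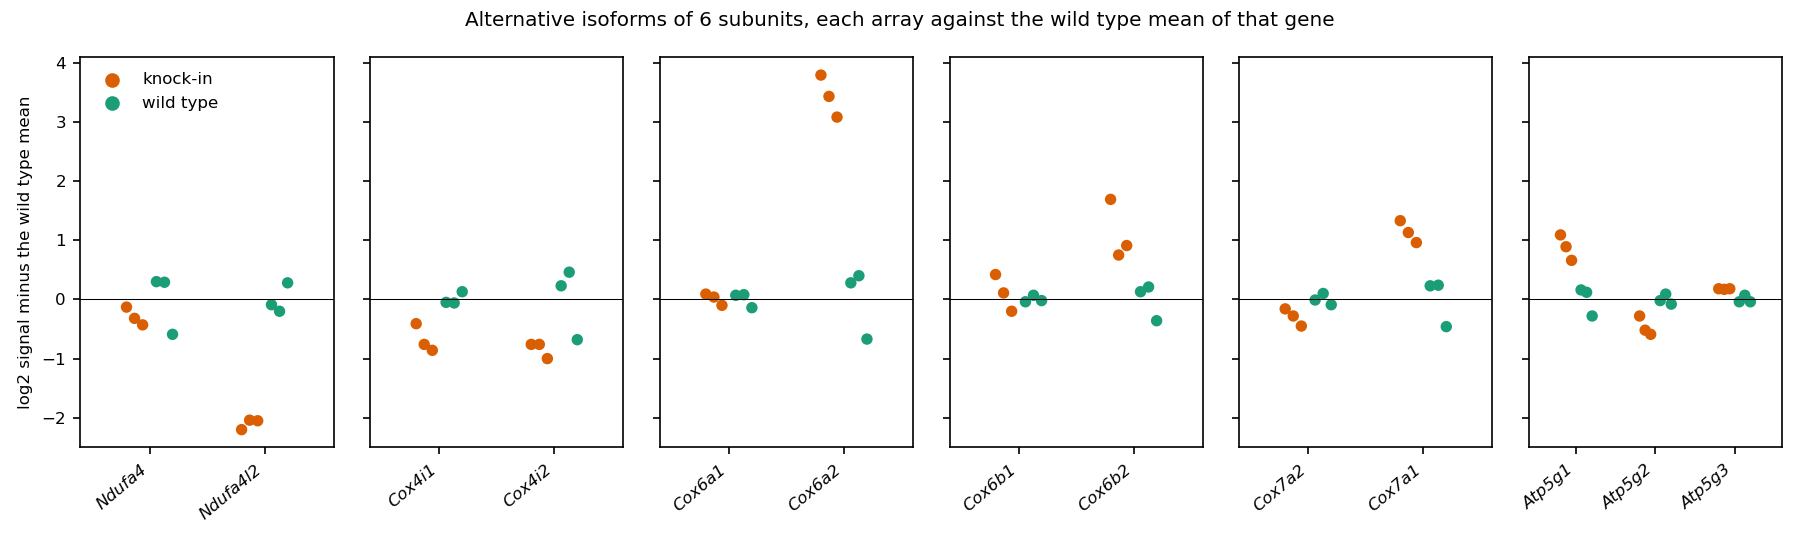
The scaled log2 signal of alternative isoforms on each array, minus the wild type mean of the same gene. Cox6a2 rises by 3.43 beside a flat Cox6a1 (0.01), Ndufa4l2 falls by 2.10 beside Ndufa4 at -0.29, and the 3 Atp5g genes differ in direction.

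Complex V, the ATP synthase, had 17 measured subunits with a median of -0.19, of which 1 rose and 1 fell. This is a share of 11.8% against the background of 25.9%. Atp5g1, Atp5g2 and Atp5g3 encode the same mature c subunit of the rotating ring behind different import sequences. Atp5g1 stood at 5.49, 5.29 and 5.06 on the knock-in arrays and at 4.56, 4.52 and 4.12 on the wild type arrays (0.88, SE 0.20, adjusted p = 0.0187). Atp5g2 stood at 5.51, 5.27 and 5.20 against 5.77, 5.88 and 5.71, lower on every knock-in array without passing (-0.46, SE 0.16, adjusted p = 0.0741). Atp5g3 differed by 0.18 (SE 0.14, adjusted p = 0.387). The within-array ratio of Atp5g2 to Atp5g1 changed by -1.34, with separate groups. Atp5k, subunit e, which helps pair ATP synthases along the cristae, stood at 4.56, 4.42 and 4.19 against 5.04, 5.10 and 4.95 (-0.64, SE 0.16, adjusted p = 0.0292).

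The rise of Atp5g1 passed without knock-in array 4 (0.99, adjusted p = 0.0301) and was lost without wild type 1 or either knock-in 1 or 2 (adjusted p from 0.0505 to 0.0775). The fall of Atp5k was lost without either wild type 1 or 2 or either knock-in 2 or 4 (adjusted p from 0.0793 to 0.116). It was also lost after quantile normalization (-0.41, adjusted p = 0.0769), with median centring (adjusted p = 0.0984), without the filter on dim probes (adjusted p = 0.095) and with the mean of its probes (-0.42, adjusted p = 0.0881), its second probe differing by -0.20. The rise of Atp5g1 was lost without that filter (adjusted p = 0.0609). Neither passed under the random slide block (adjusted p = 0.162 and 0.275). The catalytic core genes Atp5a1 and Atp5b differed by -0.15 (adjusted p = 0.562) and -0.40 (adjusted p = 0.0897). Atp5o, the stalk subunit that confers oligomycin sensitivity, had the largest difference that did not pass, at -0.55 (SE 0.18, adjusted p = 0.0607). Within the scan day Atp5o passed (-0.62, adjusted p = 0.0284). Without wild type array 3, 5 subunits of complex V fell and 1 rose.

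Subunits just inside the threshold were Cox5b (adjusted p = 0.0496) and Ndufb4 (adjusted p = 0.0467), and just outside it Ndufs6 at -0.50 (adjusted p = 0.0508) and Atp5l at -0.54 (adjusted p = 0.0587). Of 22 subunits with several probes above background, 4 had probes that differed in sign (Ndufa5, Ndufv3, Sdhb and Sdhc), none of them past the test. The annotation lists 19 pseudogenes with subunit symbols, and probes of small subunits may bind transcripts of such copies.

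Promoters of respiratory chain genes are known for binding sites of NRF1, of GABP (an ETS factor) and of YY1. RefSeq promoter windows (GRCm38.p6, 250 bases before to 50 after the start) were at hand for 70 of the 87 genes. The NRF1 motif (GCGC, any base, TGCGC), searched on both strands as were the others, stood in 17 of 70 (24.3%), against 5.19% of 27025 genes with a window. The letters CCGGAAG, searched for GABP, stood in 17 (24.3%, against 9.93%), and AAGATGGCG, searched for YY1, in 7 (10.0%, against 1.64%). No matches of different motifs overlapped. Of the genes that rose, 1 of 7 with a window held the NRF1 letters, and of those that fell, 2 of 7. The stretches upstream of the start of 3 genes show promoters with and without such letters, which stand in capitals. Cox6a1, which did not differ, holds 2 NRF1 matches and 1 ETS match, Cox7a1, which rose, holds no match, and Ndufb4, which fell, holds 3 NRF1 matches. They lie at chr5:115348959-115349138 (minus strand), chr7:30183991-30184170 (plus strand) and chr16:37654369-37654568 (minus strand).
Cox6a1: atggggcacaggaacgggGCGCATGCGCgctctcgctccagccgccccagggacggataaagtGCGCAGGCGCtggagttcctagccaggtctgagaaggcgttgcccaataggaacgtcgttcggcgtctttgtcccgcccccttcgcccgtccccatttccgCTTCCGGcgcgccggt
Cox7a1: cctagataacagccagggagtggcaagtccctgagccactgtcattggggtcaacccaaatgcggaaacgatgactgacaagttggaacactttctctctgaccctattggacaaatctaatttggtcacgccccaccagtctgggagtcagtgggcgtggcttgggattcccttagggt
Ndufb4: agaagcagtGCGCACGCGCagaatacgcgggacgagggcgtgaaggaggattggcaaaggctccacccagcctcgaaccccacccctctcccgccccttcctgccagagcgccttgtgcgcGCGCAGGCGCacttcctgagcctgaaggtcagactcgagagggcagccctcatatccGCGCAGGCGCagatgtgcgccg

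Other nuclear genes of mitochondria were described beside the subunits, from lists written down for this comparison. Regulators of mitochondrial biogenesis and mitochondrial DNA had 4 rises and no fall (by limma, also none at an unadjusted p of 0.05) among 17 measured (23.5%, median 0.05). Twnk, the mitochondrial DNA helicase, rose by 1.90 (SE 0.28, adjusted p = 0.00387) and Polg, the catalytic subunit of the mitochondrial DNA polymerase, by 0.99 (SE 0.17, adjusted p = 0.00674). Twnk was well above background on 1 and Polg on 2 wild type arrays, so the sizes are set partly against background. Tfam, which packages mitochondrial DNA, rose by 0.72 (SE 0.21, adjusted p = 0.0439), a call lost on leaving out any array but wild type 3. Nrf1, Gabpa and Yy1, whose motifs were searched above, differed by -0.36, -0.07 and -0.44 and did not pass (adjusted p = 0.159, 0.81 and 0.179). Under the random slide block the smallest adjusted p of these rises was 0.0629, that of Twnk.

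Assembly factors, which build the complexes without staying in them, had 6 rises and 2 falls among 44 (18.2%, median -0.03). Tmem126b, for complex I, rose by 1.15 (SE 0.18, adjusted p = 0.00561), and the copper chaperones Sco2 and Cox19, for complex IV, by 1.00 (SE 0.17) and 0.90 (SE 0.18). Mitochondrial ribosomal proteins had 9 rises and 8 falls among 76 (22.4%, median 0.13), with Mrps26, Mrps6 and Mrps27 falling by 1.25, 0.92 and 1.29. Membrane transport and import had 4 rises and 4 falls among 32 (25.0%, median 0.02), where the import proteins Tomm5 and Timm23 rose by 1.14 and 0.98 and the outer membrane channel Vdac2 by 0.81. Under the random slide block the smallest adjusted p in these 3 lists was 0.0616. The call of Cox19 was lost without knock-in 2 or wild type 1, that of Timm23 without knock-in 2 and that of Vdac2 without knock-in 2 or wild type 2.

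Pyruvate dehydrogenase and citric acid cycle genes had 1 rise and 5 falls among 23 (26.1%, median -0.13). Pdk4, the kinase that switches pyruvate dehydrogenase off, rose by 3.16 (SE 0.16, adjusted p = 8.97e-05; adjusted p = 0.00196 under the random slide block) and was well above background on 1 wild type array. Pdhx, a structural part of the same enzyme, fell by 1.52 (SE 0.26, adjusted p = 0.00754) and did not pass under that block (adjusted p = 0.0584), where the list kept 1 rise and none of its 5 falls. Mitophagy genes had 1 rise and 2 falls among 11 (27.3%, median -0.34). The autophagy receptor Sqstm1 rose by 1.96 (SE 0.20, adjusted p = 0.000958), and Pink1, the kinase that marks damaged mitochondria, fell by 1.12 (SE 0.20, adjusted p = 0.00817), as did the receptor Bcl2l13 by 0.97. Sqstm1 passed under the random slide block (adjusted p = 0.0173) and neither fall did (adjusted p = 0.124 for both Pink1 and Bcl2l13).

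Targets of hypoxia-inducible factor were set beside Ndufa4l2, and 2 rose and 2 fell among 16 (25.0%, median -0.22). Ndrg1 stood at 4.24 in knock-in and 6.26 in wild type lenses, a fall by 2.02 (SE 0.14, adjusted p = 0.000262; adjusted p = 0.00584 under the random slide block). Vegfa rose by 1.23 (SE 0.20, adjusted p = 0.00636) and Ddit4, an inhibitor of mTOR induced by stress, by 1.01 (SE 0.19, adjusted p = 0.00938). Neither rise passed under the random slide block (adjusted p = 0.0902 for Vegfa and 0.0936 for Ddit4), which left 1 fall and no rise in the list. The targets moved in both directions. The shares past the test in these 7 lists ran from 18.2% to 27.3%, around the background of 25.9%.

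**Figure D5:**
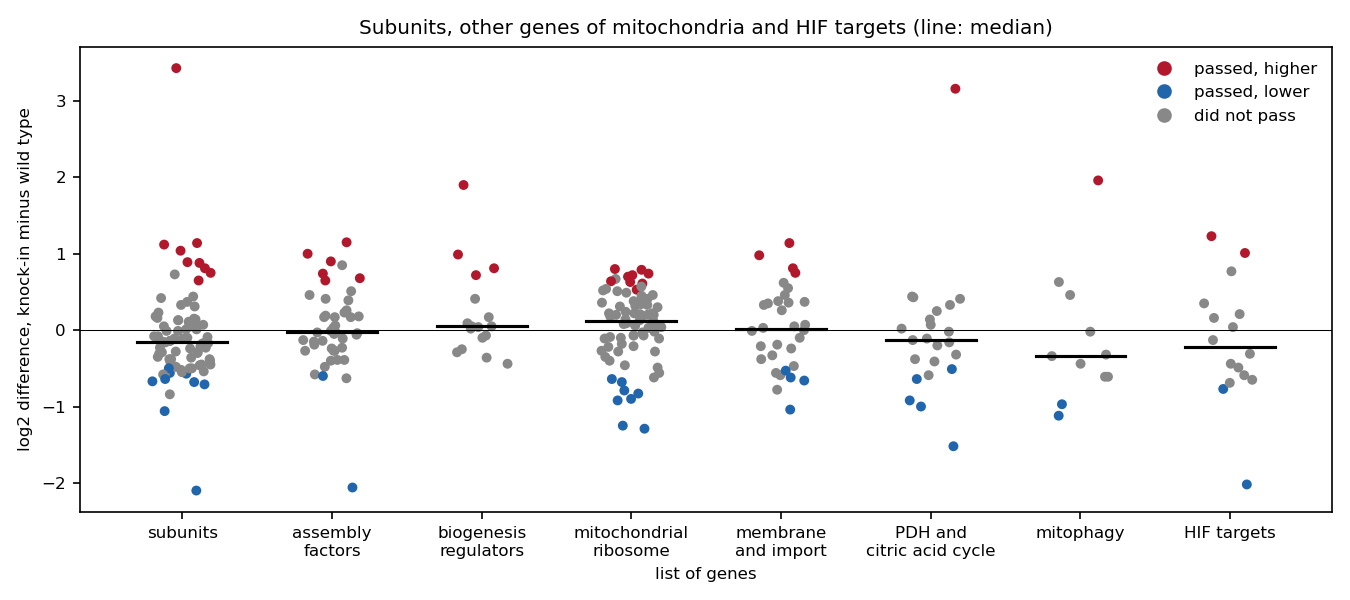
The log2 difference, knock-in minus wild type, of each measured gene among the subunits, 6 other lists of nuclear genes of mitochondria and the targets of hypoxia-inducible factor, with the median of each list as a line; red and blue points passed the test. List medians lie between -0.34 for mitophagy and 0.13 for the mitochondrial ribosome, and each list holds genes on both sides of 0.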

How the data were processed

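The authors deposited an intensity for every spot of each array, with the background already subtracted. Per the file headers the software was Feature Extraction 11.0.1.1, and per the submitters' processing notes version 9.1. Whether arrays were scaled to each other by the authors is not stated in the labels or headers. Here the log2 of the processed intensity was taken and the 75th percentile of 43020 non-control spots subtracted. Spots marked as outliers were dropped and the rest averaged per probe. A probe was kept if well above background (at least 50% of its spots) on all arrays of 1 genotype, which left 21073 of 39429. RefSeq accessions named 27234 probes, and the kept probe with the highest mean represented each gene. The genotype difference came from limma 3.58.1 (lmFit and eBayes, R 4.3.3, 4 residual degrees of freedom), and p-values were Benjamini-Hochberg adjusted over all 12781 genes. The procedure was run on simulated data with independent noise on each array. That simulation held no slide or scan day effect, so it cannot show how such effects bear on the calls. Alternatives were quantile normalization, median centring, normexp on the median signals (offset 50), other probe filters, averaging all probes per gene, blocks for scan day, slide and replicate number, and leaving out each array. The slide block, set by identical scan entries in the file headers, had a consensus correlation of 0.564.

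The subunits, lists and tests were chosen with earlier results of these data known. Genes named are up to 4 per complex and direction with the smallest p past the threshold, all of complex II and cytochrome c, isoform pairs, the largest difference that did not pass per complex, and up to 3 per other list, of which 1 is not reported here. Cox5b, Ndufs6, Atp5l, Atp5a1, Atp5b, Uqcr10, Itgam, Prph2, Nrf1, Gabpa and Yy1 fall outside this rule and were named after their values were seen. Whether arrays hold separate animals is not stated, so the spread behind each p-value is that between arrays and may be partly technical. No spot was saturated, the share of spots well above background ran from 45.5% to 58.4% per array, and the number of arrays limits the precision.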

Additional observations from a re-analysis of the deposited data

How the results depend on the processing

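Against 9 subunits called higher and 9 called lower, the count called higher was 15 after quantile normalization, 5 with normexp, 5 without the filter on dim probes and 1 with slide as a random block, and it ranged from 1 to 12 on leaving out single arrays. The count called lower was 4 after quantile normalization, 3 with median centring, 2 without the filter, 22 with the scan day as a block and 1 with slide as a random block, and ranged from 2 to 21 on leaving out single arrays. The median difference of -0.16 was 0.02 after quantile normalization and ranged from -0.22 to -0.07 on leaving out single arrays; the cause was not tested. Replicate numbers 1 and 2 occur in both genotypes, but the labels do not pair them, and deviations of same-numbered arrays correlated at 0.168 and -0.216. With the replicate block the counts were 12 higher and 8 lower, with 14 of the 18 calls shared and a median of -0.07.

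Of 34 named subunits, none of the 17 that passed changed sign under any alternative. Subunits that did not pass and changed sign were Ndufa4, Sdhb, Cox7b and Cox8a after quantile normalization (0.05, 0.12, 0.08 and 0.19), Sdhb and Cox6a1 with normexp (0.09 and -0.19), Sdhc with the mean of its probes (0.20), Cox6a1 with median centring, the scan day block and the replicate block (-0.03, -0.06 and -0.01), and Cox7b with the replicate block (0.02). On leaving out single arrays Sdhd ranged from -0.02 to 0.16, Cox6a1 from -0.06 to 0.06, Cox6b1 from -0.05 to 0.26 and Cox7b from -0.23 to 0.05. Signals near background limit Cox7a1, Cox6b2 and the size of Cox6a2, which was 2.01 with normexp against 3.43. The replicate block ended the calls of Ndufb4, Cox4i1, Cox7a2l and Cox5b (adjusted p = 0.0842, 0.0644, 0.0598 and 0.0935).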
